A study of Homo sapiens with 2 samples.

Results

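Kinesins, centromere proteins (CENP genes), subunits of the anaphase-promoting complex (APC/C; ANAPC genes) and spindle checkpoint genes were examined in a map of ATF1 binding. The members were the rows of the ATF1 peak table whose gene name is that of a KIF, CENP or ANAPC gene, or of AURKA, AURKB, BUB1, BUB1B, BUB3, MAD1L1, MAD2L1, NDC80, NUF2, SPC24, SPC25, PLK1 or TTK. These were 70 of 15064 listed peaks, after 2 antisense RNA names were left out. The ChIP library came from HCT116, an established human colon carcinoma line, precipitated with an antibody labelled 3xFlag-ATF1; how the tagged protein was introduced is not stated. The other sample was input DNA of the same line, of which no table was used here. Both were grown in 10% fetal bovine serum and fixed with 1% formaldehyde, and neither has a replicate. All values therefore describe 1 library, and no difference was tested.

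ATF1 is a basic leucine zipper activator of the CREB family. It binds the cAMP response element (CRE), the palindrome TGACGTCA, and also the shorter TGACG. The genes studied here build and control the mitotic spindle. CENP-A chromatin marks the centromere, an inner set of CENP proteins assembles on it, and the NDC80 complex joins that assembly to microtubules. Checkpoint proteins at kinetochores without microtubules hold back the APC/C, the ubiquitin ligase that starts anaphase. Kinesins are microtubule motors: some act on the spindle or in cytokinesis, others carry vesicles and organelles or work in cilia.

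Some members had ATF1 peaks among the most enriched of the table, and others had weak peaks or none. A start-site peak is any listed peak whose summit lay within 1 kb of an annotated RefSeq start of the gene. Of the 89 protein-coding members in the annotation, 75 had a start in the table used, and 47 of these (62.7%) had a start-site peak, against 50.4% of all 15811 protein-coding genes with a start. The exact 95% binomial (Clopper-Pearson) interval of the members' share, 50.7% to 73.6%, began just above that background. CENPS and its readthrough CENPS-CORT, which share a start and a peak, are both among the 47. With that peak counted once the interval would begin lower, so its small margin over the background cannot be relied on. The 4 strongest peaks named for members were at CENPW, CENPK, KIF15 and NUF2, with fold enrichments of 72.11, 69.47, 66.06 and 63.16. Fold enrichment is the authors' own ratio over a background that is not specified. These peaks stood above at least 99.8% of the table, whose other peaks had a median of 6.97.

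The reference sequences under these 4 summits are shown because they carry the strongest peaks. NDC80 is shown as the partner of NUF2, CENPE as another CENP gene with a full CRE, and KIF5C as a cargo kinesin with the same element. Each runs from 250 bases before to 50 after the start, 5′ to 3′ on the strand of the gene, from RefSeq on GRCh38.p14. Capitals mark TGACG on either strand (CGTCA when read on the gene's strand) and the full CRE. The windows lie at chr6:126339865-126340164, plus strand, for CENPW; chr5:65563119-65563418, minus strand, for CENPK; chr3:44761544-44761843, plus strand, for KIF15; chr1:163321704-163322003, plus strand, for NUF2. NDC80 is at chr18:2571307-2571606, plus strand, CENPE at chr4:103198294-103198593, minus strand, and KIF5C at chr2:148874977-148875276, plus strand.
CENPW: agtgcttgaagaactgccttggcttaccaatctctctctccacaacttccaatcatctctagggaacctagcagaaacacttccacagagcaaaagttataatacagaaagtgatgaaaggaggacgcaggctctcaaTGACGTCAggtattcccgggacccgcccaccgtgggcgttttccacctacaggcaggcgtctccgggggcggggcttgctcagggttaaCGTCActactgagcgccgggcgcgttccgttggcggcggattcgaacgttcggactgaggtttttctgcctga
CENPK: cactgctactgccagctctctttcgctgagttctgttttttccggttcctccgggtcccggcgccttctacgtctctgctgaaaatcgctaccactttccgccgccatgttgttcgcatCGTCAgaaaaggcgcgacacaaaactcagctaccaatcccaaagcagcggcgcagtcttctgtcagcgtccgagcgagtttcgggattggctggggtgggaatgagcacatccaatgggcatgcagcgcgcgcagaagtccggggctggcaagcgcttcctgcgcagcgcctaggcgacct
KIF15: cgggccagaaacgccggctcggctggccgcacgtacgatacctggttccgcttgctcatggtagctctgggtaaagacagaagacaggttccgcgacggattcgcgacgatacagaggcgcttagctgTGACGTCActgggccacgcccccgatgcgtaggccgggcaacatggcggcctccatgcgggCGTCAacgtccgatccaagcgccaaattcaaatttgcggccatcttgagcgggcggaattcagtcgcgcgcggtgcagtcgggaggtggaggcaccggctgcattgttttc
NUF2: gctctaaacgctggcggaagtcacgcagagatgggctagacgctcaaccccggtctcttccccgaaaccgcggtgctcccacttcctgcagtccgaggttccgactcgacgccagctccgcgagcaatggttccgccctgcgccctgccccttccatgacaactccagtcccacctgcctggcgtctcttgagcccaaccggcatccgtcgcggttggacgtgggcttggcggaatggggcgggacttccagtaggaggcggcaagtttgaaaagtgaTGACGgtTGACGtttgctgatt
NDC80: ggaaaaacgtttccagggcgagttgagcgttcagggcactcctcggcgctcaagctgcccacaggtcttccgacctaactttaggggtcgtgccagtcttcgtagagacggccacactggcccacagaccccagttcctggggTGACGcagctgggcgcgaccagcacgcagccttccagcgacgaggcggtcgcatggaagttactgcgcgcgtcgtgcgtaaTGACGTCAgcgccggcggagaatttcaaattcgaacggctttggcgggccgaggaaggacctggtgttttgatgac
CENPE: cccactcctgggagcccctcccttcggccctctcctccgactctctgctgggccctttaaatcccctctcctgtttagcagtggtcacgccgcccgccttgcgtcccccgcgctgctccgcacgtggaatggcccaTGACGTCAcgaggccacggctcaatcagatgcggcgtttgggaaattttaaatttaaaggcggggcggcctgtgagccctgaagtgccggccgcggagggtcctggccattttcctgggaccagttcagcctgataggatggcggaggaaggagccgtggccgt
KIF5C: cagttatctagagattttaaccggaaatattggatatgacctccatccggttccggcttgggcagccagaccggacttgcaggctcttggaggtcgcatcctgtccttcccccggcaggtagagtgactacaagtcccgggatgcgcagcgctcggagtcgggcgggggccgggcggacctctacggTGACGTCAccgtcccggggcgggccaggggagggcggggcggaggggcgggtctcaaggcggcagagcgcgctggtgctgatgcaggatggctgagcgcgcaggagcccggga

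Where these windows held a full CRE, it was at most 65 bp from the summit. CENPE and KIF5C were shown for their CRE. A short distance was likely in any case, because the windows and these summits both lie close to the start. In KIF5C the nearest TGACG, part of its CRE, was centred 2 bp from the summit, and in CENPE 21 bp. In KIF15 the nearest was a separate TGACG 4 bp from the summit, with the CRE 62 to 65 bp away. In CENPW a separate TGACG was 27 bp from the summit and the CRE 59 to 62 bp from it. In NDC80 the separate TGACG was 23 bp away and the CRE 58 to 61 bp. CENPK held 1 TGACG, 116 bp from the summit, and NUF2 a pair of them at 82 and 89 bp. The strongest peaks thus included windows with and without the palindrome.

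**Figure D1:**
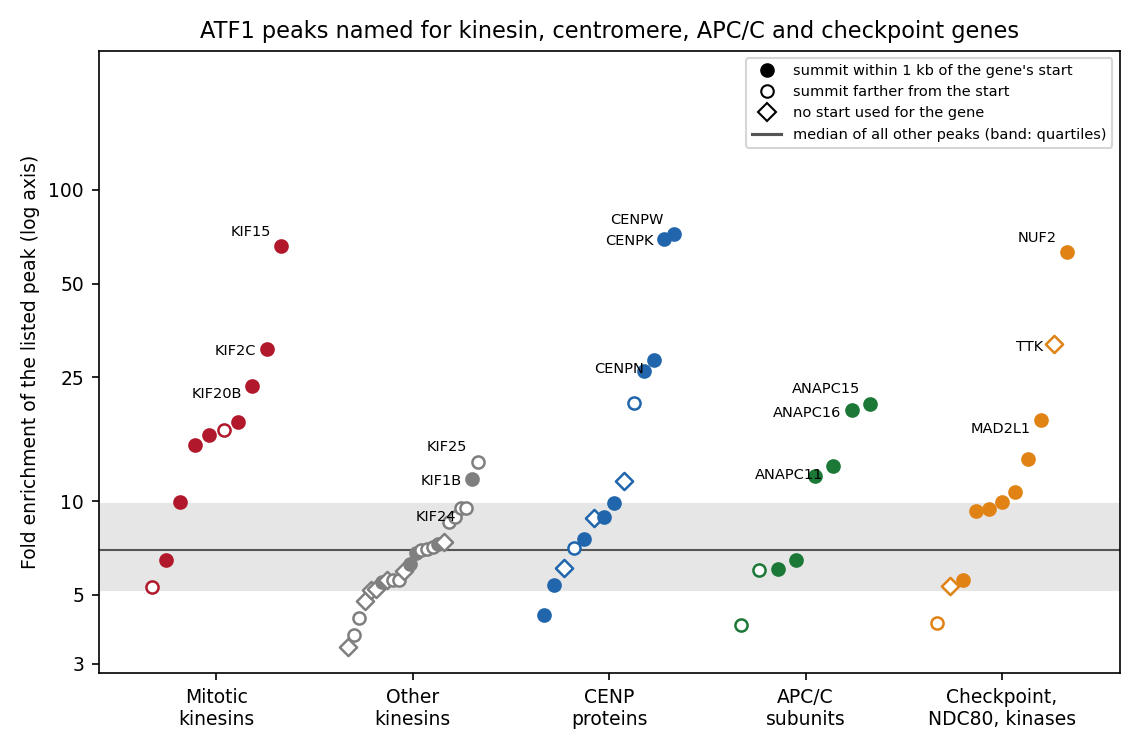
Fold enrichment (log axis) of each listed peak in the 5 role groups, 67 genes in all. Filled circles have a summit within 1 kb of the gene's own annotated start, open circles a summit farther away, and diamonds no start used; the line and band are the median (6.97) and quartiles (5.18 and 9.76) of all 14994 other peaks. Mitotic kinesins reach 66.06, whereas the other kinesins end at 13.38.

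Many, but not all, kinesins of the spindle and of cytokinesis had strong peaks at their starts. Among the 15 annotated mitotic kinesins, 10 had a start-site peak, and the interval of 38.4% to 88.2% held the background of 50.4%. At 10-fold or more it was 8 of 15, against 18.2% of all protein-coding genes with a start. Of the 10 listed mitotic kinesins, 7 were in the top quintile of fold enrichment (at least 10.78), where 20.0% of all peaks lie, and their median was 16.64. KIF15, which helps keep the spindle bipolar, had 368 tags (exact 95% Poisson interval 331.4 to 407.6) in an exonic peak at chr3:44760873-44762397, with the summit 55 bp before the start. KIF2C, a microtubule depolymerase of the centromere, had 30.81-fold enrichment and 220 tags, with the summit 64 bp before the start. KIF20B, a motor of late mitosis, had 23.52-fold and 180 tags, 93 bp before the start. These are the 3 strongest of the group.

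KIFC1, a motor directed to microtubule minus ends, followed with 18.01-fold and 540 tags, the most tags among mitotic kinesins. KIF22, which acts on chromosome arms, had 16.35-fold, and KIF14, a cytokinesis motor, 15.16-fold. KIF11, which pushes spindle poles apart, had 16.93-fold and 355 tags. Its summit was 1365 bp before the start, although the peak interval reached over the start, so it was not counted as a start-site peak. KIF2A, a depolymerase at spindle poles, had 9.92-fold with 424 tags.

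The weakest mitotic kinesin peaks were those of KIF23 and KIF18B. KIF23, the motor of the central spindle, had 6.46-fold enrichment and 280 tags, with its summit 53 bp before the start. KIF18B, which acts on astral microtubules, had 5.30-fold and 59 tags in an exonic peak 11491 bp inside the gene. The KIF23 peak thus held close to the group's median of 302.5 tags while its enrichment was below the median of the table.

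Kinesins outside mitosis were listed often, with moderate or low enrichment. Of 27 annotated genes, 24 were listed (88.9%), against 57.9% of all protein-coding genes. With a known start, 6 of 19 (31.6%) had a start-site peak, against 10 of 15 mitotic kinesins (66.7%). The binomial intervals, 12.6% to 56.6% and 38.4% to 88.2%, overlapped, and both held the background of 50.4%. Each gene name is given once in the peak table. For 12 of the other kinesins that named peak was away from the start, so a start-site peak could appear only under another gene's name. The share of 31.6% may therefore miss peaks, and how the listed peak was chosen is not stated. The lower share of the other kinesins depended on the setting. With either gene end of every gene counted, 13 of 27 (48.1%) had a peak within 1 kb. The same count gave 48.0% of all protein-coding genes and 10 of 15 mitotic kinesins. This setting adds genes without a start and also counts gene ends away from the start. Through such an end KIF12, KIF17 and KIF25 were counted, with peaks 144 to 261 bp from it and none within 1 kb of a start. KIF5A, KIF19, KIF27 and KIF26B, for which no start was used, had their named peaks 19 to 135 bp from a gene end. At 10-fold or more, 1 of 19 had a start-site peak (KIF1B), against 8 of 15 mitotic kinesins and 18.2% of all protein-coding genes with a start. In the top quintile were 2 of 24 peaks, against 20.0% of all peaks, and the median enrichment was 6.54. Both backgrounds, 18.2% and 20.0%, lie inside this group's intervals.

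Most named peaks of these genes away from a start held few tags. For 12 of the other kinesins the named peak was not at a start, at 7167 to 170589 bp from it (median 40262 bp), and 9 of these 12 held at most 65 tags. Their median was 49 tags at 7.08-fold, whereas the 5 named peaks at a start had a median of 446 tags at 6.79-fold. Of all listed peaks, 26.8% held fewer than 65 tags. Fewer tags away from starts were general to the table. The 7851 peaks away from any protein-coding start had a median of 76 tags, against 250 for the 7213 near one. KIF25 had the highest enrichment of the group, 13.38-fold, from 65 tags in an intron 37613 bp from the start. KIF24, a regulator of centriole and cilium assembly, had 9.47-fold from 21 tags (Poisson interval 13.0 to 32.1), and KIF16B, a carrier of early endosomes, 9.47-fold from 24 tags. By the authors' score, for which the basis is not stated, KIF24 stood above 18.0% of peaks and KIF16B above 24.9%, but by fold enrichment above 73.1% each. Enrichment and tags thus rank the peaks of KIF24 and KIF16B differently.

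Cargo kinesins with a peak at the start had 264 to 671 tags and moderate or low enrichment. Over all start-site peaks of the table the medians were 250 tags and 7.81-fold. KIF1B, a carrier of mitochondria and synaptic vesicle precursors, had 11.77-fold and 671 tags, 114 bp before the nearest of its starts. KIF5B, the ubiquitous heavy chain of conventional kinesin, had 5.51-fold and 289 tags with the summit 3 bp from the start, and its neuronal relative KIF5C 6.29-fold and 264 tags. KIF3C, of the kinesin-2 family, had 7.29-fold and 446 tags, and KIF21A 6.79-fold and 575 tags. The weakest peaks of the group were long: KIF13B had 3.39-fold with 365 tags over 5199 bp, and KIF26A 3.72-fold with 777 tags over 11399 bp. Longer member peaks had lower enrichment (Spearman's rho -0.43 over 70 peaks, -0.23 over all 15064). These peaks share 1 library, and both measures come from the same peak call.

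**Figure D2:**
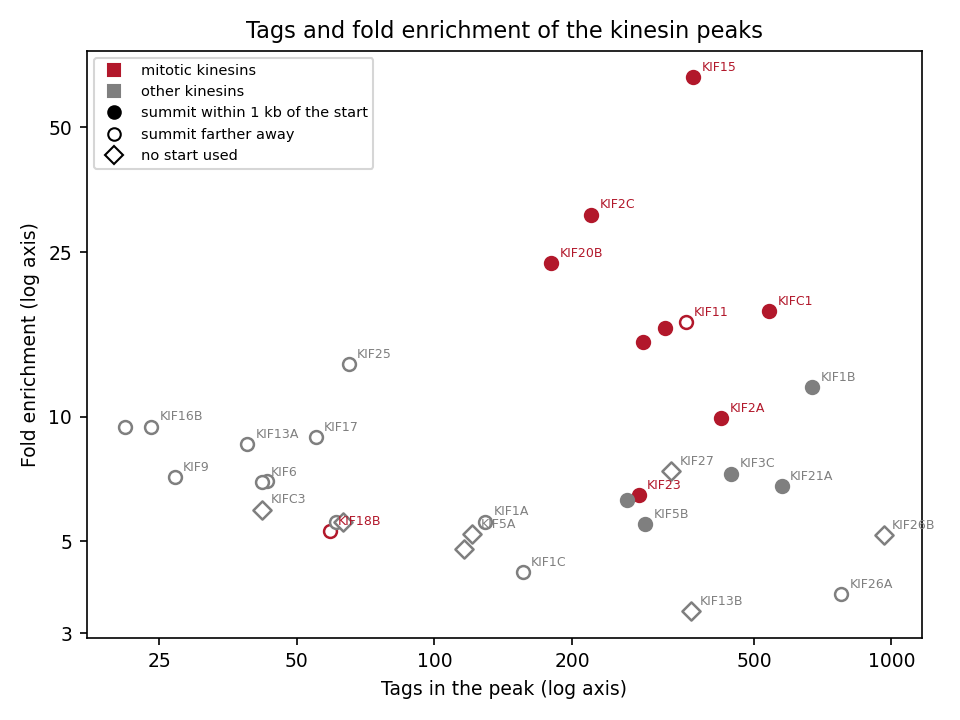
Tags and fold enrichment (both log axes) of the 34 listed kinesin peaks, with mitotic kinesins in red and other kinesins in grey; filled circles have a summit within 1 kb of the own start, open circles farther away, diamonds no start used. The peaks of other kinesins away from the start lie mostly at the left, from 21 tags, while the mitotic kinesins lie at 180 to 540 tags apart from KIF18B at 59.

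Centromere proteins ranged from the 2 strongest members to among the weakest. The 14 listed CENP peaks had a median of 9.41-fold, and 6 of them (42.9%) were in the top quintile, against 20.0% of all peaks, a value inside the group's interval of 17.7% to 71.1%. CENPW, which pairs with CENP-T through a histone fold, had 181 tags (Poisson interval 155.6 to 209.4) at chr6:126339731-126340710, with the summit 48 bp before the start. CENPK, of the CENP-H/I/K part of the inner kinetochore, had 192 tags at chr5:65562658-65563906, 13 bp before the start. CENPN, which binds the CENP-A nucleosome, had 28.37-fold and 742 tags, the most tags of this group, in an intronic peak whose summit was 252 bp after the start. These 3 were the strongest of the group.

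CENPE, a kinesin that moves chromosomes to the spindle equator, had 26.10-fold and 352 tags, 88 bp before the start. CENPI, a partner of CENPK, had 20.64-fold and 139 tags in a peak classed as upstream. It lay 85 bp from the start of the gene as the authors list it but 2984 bp from the RefSeq start used here, so it did not count as a start-site peak. CENPL, which joins CENPN, had 11.58-fold from 43 tags. CENPA, the histone H3 variant of the centromere, had 5.37-fold and 188 tags with the summit 50 bp after the start. CENPO, of the CENP-O/P/Q/U part, was the weakest at 4.31-fold with 182 tags. CENPW and CENPO thus stood at opposite ends of the group in enrichment with nearly the same number of tags.

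Subunits of the APC/C had a start-site peak at 8 of 10 (80.0%), against 50.4% of all protein-coding genes with a start, a value inside the group's interval of 44.4% to 97.5%. ANAPC15, which takes part in the release of checkpoint proteins, had the highest named peak at 20.53-fold from 66 tags, 41 bp after the nearest of its starts. ANAPC16, a small subunit, had 19.57-fold and 280 tags with the summit 5 bp after the start. ANAPC11, the RING subunit that recruits ubiquitin-conjugating enzymes, had 12.96-fold and 609 tags. ANAPC5 (12.07-fold), ANAPC1 (6.47-fold) and ANAPC4 (6.03-fold), all of the scaffold, also had their named peak at the start.

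The weakest APC/C peaks were away from the start. ANAPC7, of the arm made of tetratricopeptide repeats, had 6.02-fold and 76 tags in the only downstream peak among all members, 32795 bp from its start. ANAPC2, the cullin subunit that pairs with ANAPC11, had 3.99-fold and 499 tags in an exonic peak of 6836 bp, 8097 bp from the start. The catalytic pair ANAPC11 and ANAPC2 thus differed in both enrichment and position.

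Checkpoint, NDC80 complex and mitotic kinase genes had a start-site peak at 9 of the 10 with a known start (binomial interval 55.5% to 99.7%), against 50.4% of all protein-coding genes with a start. NUF2, which forms the microtubule-binding head together with NDC80, had 234 tags (Poisson interval 205 to 266) at chr1:163321374-163322670, 52 bp before the start. TTK, the kinase at the top of the checkpoint, had 31.91-fold and 284 tags, with the summit 123 bp from its annotated gene boundary. MAD2L1, the inhibitor that captures CDC20, had 18.18-fold and 198 tags, 70 bp before the start. These were the 3 strongest of this group. BUB1B, another part of the inhibitory complex, had 13.63-fold from 71 tags, and its relative BUB1, a kinetochore kinase, 5.58-fold from 101 tags.

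The remaining NDC80 complex genes, SPC25 and SPC24, had 9.91-fold (51 tags) and 9.31-fold (124 tags), both at the start. PLK1, a kinase of mitotic entry, had 10.73-fold and 143 tags, and AURKB, the kinase of the chromosomal passenger complex, 9.44-fold and 129 tags. The weakest peaks were at BUB3, which docks BUB1 and BUB1B at kinetochores, with 5.33-fold and 133 tags, and at MAD1L1, the anchor of MAD2L1, with 4.07-fold and 773 tags. The MAD1L1 peak was intronic, 12405 bp long and 376500 bp from the start. It was the longest of all member peaks.

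**Figure D3:**
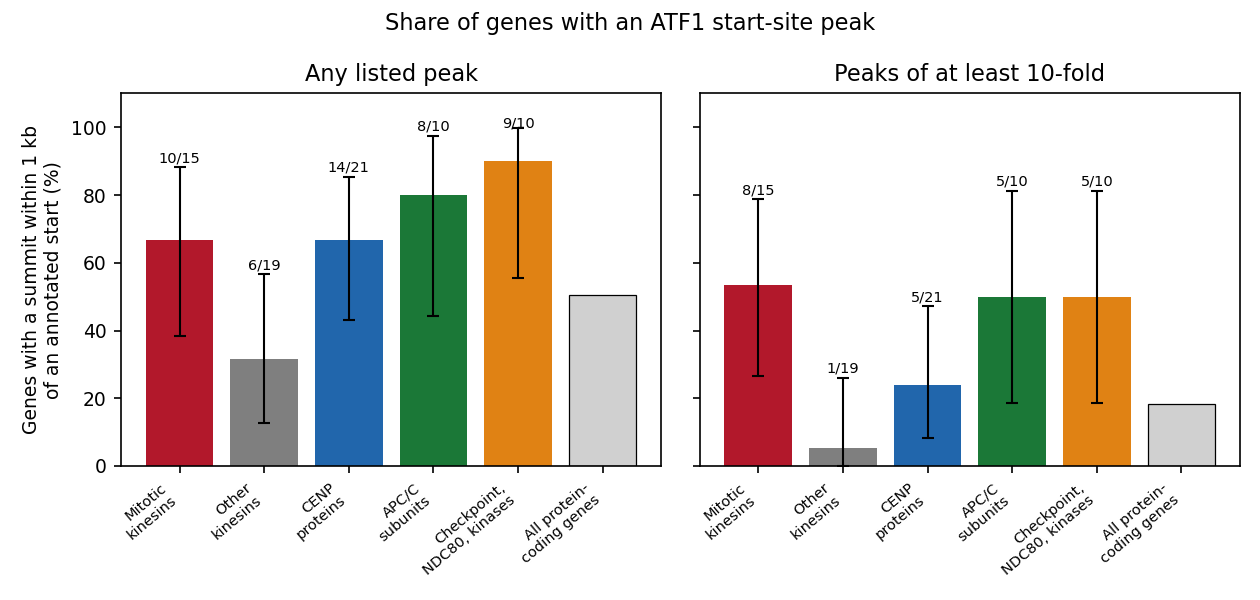
Percentage of genes with a summit within 1 kb of an annotated start, for any listed peak (left panel) and for peaks of at least 10-fold (right panel), with all 15811 protein-coding genes with a start as the last bar. Numbers over bars give genes with a peak over genes with a start, and error bars are exact 95% binomial (Clopper-Pearson) intervals, which cover counting error only. The other kinesins are below the last bar in both panels (31.6% and 5.26%, against 50.4% and 18.2%), and the remaining groups are above it, although in the left panel only the interval of the checkpoint, NDC80 and kinase group leaves out the background, and in the right panel those of the other kinesins and CENP genes include it.

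Several members missing from the table under their own name had a start-site peak named for the gene next door. The table gives each gene name once and each peak 1 gene, and 22 of the 89 annotated members were not listed by current symbol. Of the 20 of these with a start, 9 had a start-site peak (45.0%, binomial interval 23.1% to 68.5%), against 22.1% of all 6429 unlisted protein-coding genes with a start. At 10-fold or more it was 5 of 20, against 9.11%, which lies inside the members' interval of 8.66% to 49.1%. The 9 hold both CENPS and CENPS-CORT, which share a start and a peak. With that peak counted once the interval of 23.1% to 68.5% would begin lower, so its margin over 22.1% cannot be relied on. For 7 of the 9 the peak was named for a neighbour. NDC80 itself was covered by the peak of METTL4, with 72.03-fold enrichment and 474 tags, its summit 82 bp before the NDC80 start and 30 bp from that of METTL4 on the opposite strand. CENPQ had the peak named MUT (36.09-fold, 248 tags, 145 bp before its start). KIF18A, which dampens chromosome movement at the spindle equator, had that of METTL15 (28.25-fold, 262 tags). ANAPC10, a substrate-binding subunit, had that of ABCE1 (23.54-fold, 312 tags). KIF4A, a chromosome-bound motor, had that of PDZD11 (11.39-fold, 84 tags). These 5 peaks were all in the top quintile.

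Weaker peaks of this kind covered CENPB, which binds alphoid satellite DNA (peak of CDC25B, 9.94-fold, 453 tags), and ANAPC13 (peak of CEP63, 6.17-fold, 288 tags). CENPS and its readthrough CENPS-CORT share a start, and their peak is listed under the older name APITD1 (4.28-fold, 340 tags). AURKA, the kinase of spindle poles, had no start in the table used, but the peak named CSTF1 (29.44-fold, 238 tags) lay 160 bp from its annotated boundary, measured at the summit. KIF9 and CENPT were listed for peaks 34743 bp and 13878 bp from their nearest start. Each had in addition a neighbour's peak near a start, at 7.98-fold (named KLHL18) and 5.11-fold (named NUTF2). A gene's own listed peak is thus not always the one at its promoter.

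Another 11 unlisted members with a known start had no peak within 1 kb of it: CENPF, CENPV, CENPVL1, CENPVL2, CENPVL3, CENPX, KIF20A, KIF2B, KIF3A, KIF3B and KIF4B. KIFC2 had no start in the table used and was not listed either. CENPVL1, CENPVL2 and CENPVL3 are near copies of each other, and the treatment of reads matching several copies is not stated. The read depth of the library is unknown, so a missing peak is not evidence of no binding. KIF20A and CENPF are, as background, motor and kinetochore proteins of the same cell-cycle phase as KIF20B and CENPE.

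Some member promoters were shared with a gene on the opposite strand. Of 38 peaks named for a member and near any protein-coding start, 8 (21.1%) lay within 1 kb of starts of more than 1 gene. Of all 7213 such peaks it was 11.4%, a value inside the members' interval of 9.55% to 37.3%. Shared starts whose peak carries the neighbour's name, as at NDC80 with METTL4 or KIF18A with METTL15, are not in this count. In all 8 the partner runs in the opposite direction: KIF15 with KIAA1143, CENPK with PPWD1, CENPN with CMC2, CENPP with NOL8, CENPO with PTRHD1, ANAPC16 with ASCC1, ANAPC11 with ALYREF, and NUF2 with RGS5. The summit was 120 bp from the start of KIAA1143 and 115 bp from that of PPWD1. For ANAPC11 it was 53 bp from the start of ALYREF and 73 bp from the nearest ANAPC11 start. Which gene of a pair a peak relates to cannot be told apart from position alone.

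The 36 named peaks at a member's own start had their summits close to it and mostly before it. All 36 were within 300 bp, 23 (63.9%) within 100 bp, and 26 (72.2%) upstream, with a median of -54 bp. Over all 7963 protein-coding genes with a start-site peak, 6648 were within 300 bp, 52.4% within 100 bp and 64.3% upstream, with a median of -39 bp. The sets are unlike: the 36 leave out start-site peaks listed under another name, and the 7963 include them. By the authors' classes, 55.7% of member peaks were exonic, 18.6% intronic and 24.3% upstream, against 43.5%, 33.9% and 19.9% of all peaks; the 1 downstream peak was 1.43%, against 2.70%. Of the 12 listed genes without a start in the table used, 8 had the peak within 1 kb of a gene end. CENPM, KIF13B, KIF21B and KIFC3 were the other 4.

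**Figure D4:**
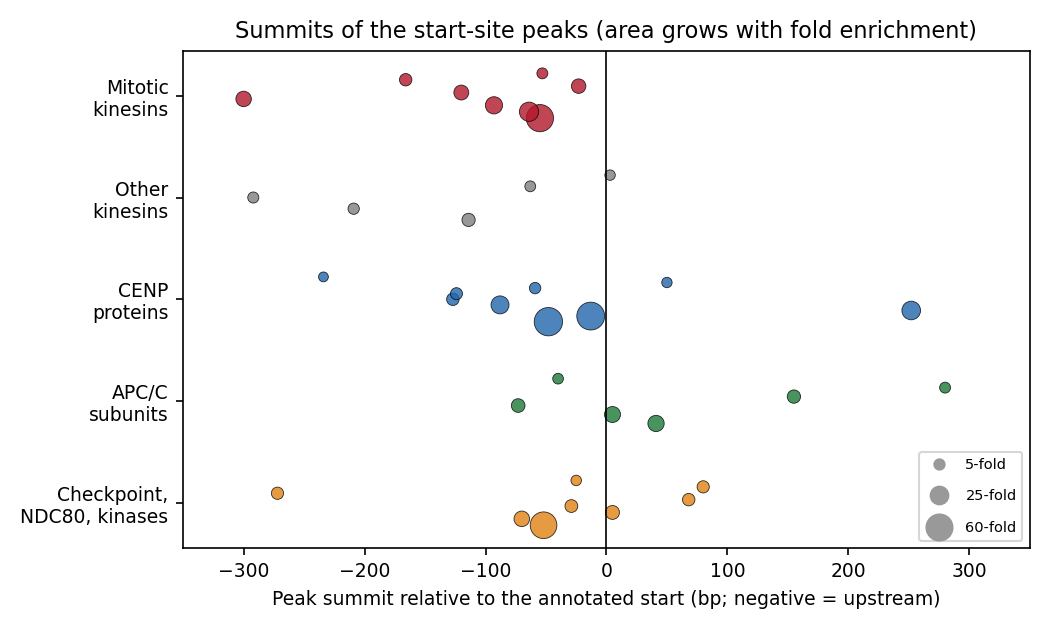
Position of the summit relative to the gene's own annotated start (bp, negative upstream) for the 36 named start-site peaks, 1 circle per gene in 5 role groups; circle area grows with fold enrichment. The largest circles, those of CENPW, CENPK, KIF15 and NUF2, lie between -55 and -13 bp, and mitotic kinesin summits are all upstream.

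Sequence elements of cell-cycle promoters were found in many of the windows. The element searched was the cell cycle genes homology region (CHR), written as TTTGAA or as TTCGAA, on both strands; in other genes it is known as a docking site of the complexes that time late cell-cycle transcription. It was found at 11 of 15 mitotic kinesins (73.3%), 2 of 19 other kinesins (10.5%), 7 of 21 CENP genes, 3 of 10 APC/C genes and 7 of 10 checkpoint, NDC80 and kinase genes. Over all members it was 30 of 75, against 17.4% of all 15811 protein-coding genes with a start. Among genes with a start-site peak it was 23 of 47 members (48.9%), against 14.8% of all. The CCAAT box, a binding site of NF-Y, was found at 11 of 15 mitotic kinesins and 7 of 19 other kinesins, and at 40 of 75 members, against 42.1% of all. Among genes with a start-site peak it was found at 27 of 47 members (57.4%), against 44.2% of all. Both CCAAT backgrounds lie inside the members' intervals, 41.4% to 64.9% and 42.2% to 71.7%. These matches describe the letters of the reference and do not show that a factor binds there.

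CRE sequences were less frequent. The full CRE was found at 7 of 75 members (9.33%), against 3.00% of all protein-coding genes with a start: ANAPC10, CENPE, CENPW, KIF15, KIF1A, KIF5C and NDC80. In 6 of these 7, all but KIF1A, the gene had a start-site peak, against 335 of 474 among all genes with a full CRE in a window. In the same 6 the CRE was within 100 bp of the summit. That distance was not counted over all genes. It was likely to be short in any case, because the scanned windows and most of these summits both lie close to the start. Among genes with a start-site peak a full CRE was found at 6 of 47 members (12.8%), against 4.21% of all. The members' binomial intervals for the full CRE, 3.84% to 18.3% of the 75 and 4.83% to 25.7% of the 47, began just above these backgrounds. A CRE with at most 1 mismatch was found at 10 of the 47 (21.3%), against 16.6%, which lies inside the interval of 10.7% to 35.7%. TGACG, which is also part of every full CRE, was found at 31 of 75 (41.3%), against 34.5%. Among genes with a start-site peak it was found at 20 of 47 members (42.6%), against 43.8% of all, and within 50 bp of the summit at 10 of 47 (21.3%), against 18.6%. For TGACG alone the members were thus near the background. For 12 of the 47 members, and for 34.3% of all genes with a start-site peak, the summit lay outside the scanned window, so the sequence at the summit was not searched there.

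**Figure D5:**
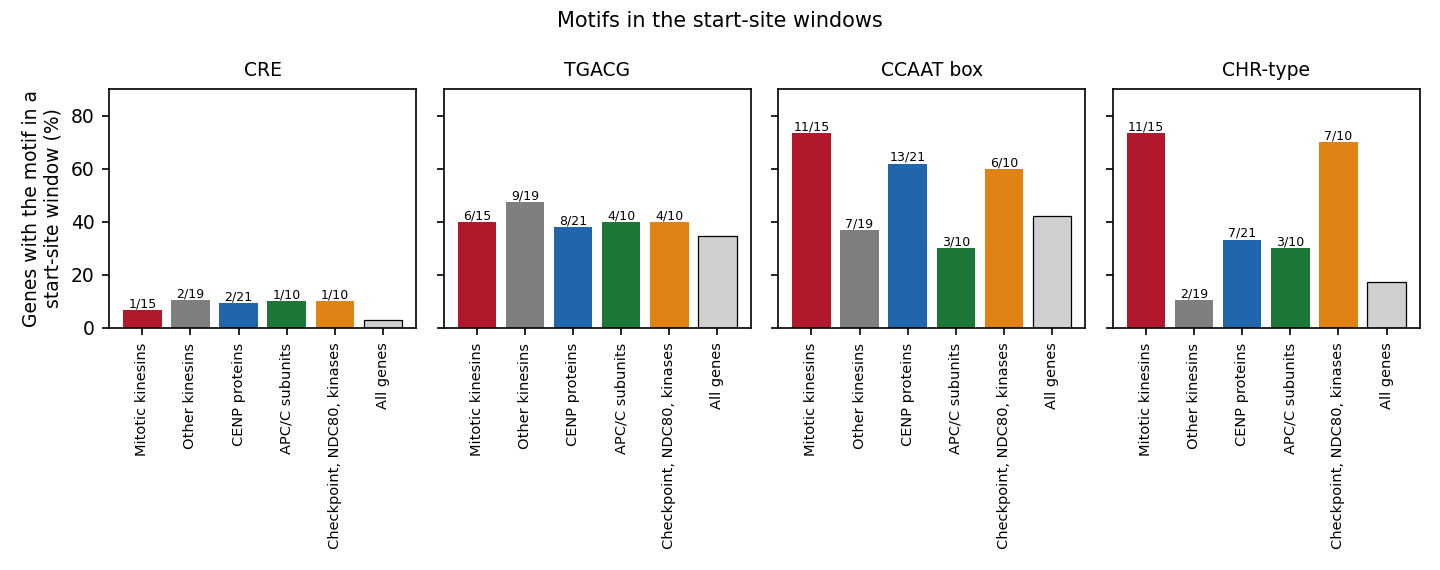
Percentage of genes with each motif in a window of 250 bases before to 50 after any of their starts (both strands), by role group, with all protein-coding genes with a start as the last bar of each panel. Counts stand over the bars; CHR-type is TTTGAA or TTCGAA. The CHR-type panel has its highest bars at mitotic kinesins (11 of 15) and at checkpoint, NDC80 and kinase genes (7 of 10), while the bars of the TGACG panel lie close to each other.

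Partners of these genes in the kinetochore, the APC/C and the spindle also mostly had a peak at the start. These partners are a list written by hand with earlier results of these data known, so their shares are a description only. Of 38 such genes outside the members, 30 had a known start, and 26 of these 30 had a start-site peak, against 50.4% of all. At 10-fold or more it was 20 of 30, against 18.2%. The strongest listed were MASTL, the kinase that restrains the phosphatase opposing mitosis (36.11-fold, 636 tags), ZWILCH, of the complex that brings dynein to kinetochores (34.21-fold, 92 tags), SGO1, the protector of centromeric cohesion (31.56-fold, 285 tags), and PRC1, which bundles the central spindle (27.70-fold, 644 tags). The APC/C subunit gene CDC27 had 16.50-fold, whereas CDC16 had 3.86-fold. The APC/C activator CDC20 had 5.58-fold with 171 tags.

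Over all members, 24 of 70 peaks (34.3%) were in the top quintile of fold enrichment, where 20.0% of all peaks lie. Their median enrichment was 8.72, against 6.97 for all other peaks. When peaks were ranked by tags instead, 15 of 70 members were in the top quintile, near the background, and the median was 180.5 tags, against 162 for all other peaks. Matched by name alone were KIF1BP (now KIFBP, a kinesin-binding protein, 4.88-fold), CENPJ, a centriole protein (4.35-fold), and CENPBD1P1, now annotated as a pseudogene (10.92-fold).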

How the data were processed

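Peaks of 1 ATF1 ChIP library were used. The submitters' processing notes name hg38, CASAVA, Bowtie2 and bedtools. For the peak caller, its control and its settings, nothing is stated. Per the file headers, each peak has deposited tags (whole-number counts, not normalised), a deposited score whose basis is not stated (lowest 50) and a deposited fold enrichment (a ratio, lowest 3). Of the table, 1 line without a position was left out. Read depth is unknown, and Poisson and binomial intervals cover counting error only.

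Starts and strands came from RefSeq promoter windows (GRCh38.p14, which shares hg38 coordinates): 22131 starts of 15811 genes, of 19970 protein-coding ones outside the Y chromosome. For a gene with several starts, any of them counted. Distances run from the summit, and motifs were exact matches on both strands. The distance and motif steps were tested on simulated data. Members, role groups and lists were chosen with earlier results of these data known. Every member could be named, with values for the 3 strongest and 2 weakest of each role group and the 4 strongest partners; further members were named for their role. Alternatives changed windows, thresholds, rankings and motifs. Python 3.11.15, numpy 2.4.6, pandas 2.3.3, scipy 1.17.1 and matplotlib 3.10.9 were used.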

Additional observations from a re-analysis of the deposited data

How the results depend on the processing

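The number of members with a start-site peak, 47 of 75, lay between 34 and 50 with windows of 500 bp or 5 kb, any overlap with the window, peaks at or above the median enrichment, or the assigned peak alone (36 of 75, against 39.2% of all genes). The number was 24 with peaks of at least 10-fold (background 18.2%). Counting either end of every protein-coding gene, a setting added after the data were seen, gave 59 of 89 (background 48.0%). Of 89 annotated members, 67 were listed, 41 at or above the median enrichment and 24 at 10-fold or more, where the background was 57.9%, 29.0% and 14.5%. The top quintile held 24 members by fold enrichment, 22 by score, 15 by tags, and 15 of 38 among start-site peaks alone. A CRE or TGACG was found at 31 members (background 34.5%), a full CRE at 7 (3.00%) and a CRE with at most 1 mismatch at 13 (14.9%). Among genes with a start-site peak, a CRE or TGACG was found at 20 of 47 (background 43.8%). Median score was 274.74, against 152.665 for other peaks, and median tags 180.5, against 162. With windows of 500 bp and 5 kb (backgrounds 46.8% and 57.2%), the start-site count was 10 and 11 of 15 mitotic kinesins, and 6 and 7 of 19 other kinesins; with either gene end it was 10 of 15 and 13 of 27, so that the other kinesins were at the background of 48.0%. No paired analysis was possible because 1 library was used and no replicate exists. Depth is unknown, so weak peaks may be missing.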
